A study of Mus musculus with 8 samples.

Results

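Hox genes encode homeobox transcription factors that lie in 4 clusters in the mouse, HoxA, HoxB, HoxC and HoxD. The open chromatin of 38 listed Hox genes was described here, 10 in HoxA, 10 in HoxB, 9 in HoxC and 9 in HoxD, of 34324 annotated genes that are protein-coding or long noncoding. Each gene was taken by its symbol, its locus ran from 2 kb before to 2 kb beyond the annotated gene body, and a peak counted where it overlapped that locus. The whole of each cluster, from the first to the last listed gene with 2 kb on both sides, was measured as well. Clustered genes sit close together, so 27 of the 38 loci share bases with another listed locus and are not independent of each other.

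The study used ATAC-seq, which marks accessible DNA with the transposase Tn5, in satellite cells, which are the stem cells of muscle, taken from the hindlimb of C57BL/6 mice. It had 8 libraries in 4 groups of 2. LncMyod siRNA cells were cultured and treated for 48 h with siRNA that targets the long noncoding RNA LncMyod, whose gene lies next to Myod1, a gene for a myogenic factor. Control siRNA cells were cultured with a control siRNA. ASC were satellite cells isolated 2.5 days after muscle injury, and QSC were satellite cells used fresh after isolation. By the series' design text both siRNA groups were in culture for differentiation, in F10 medium with horse serum, and no label gives a genetic modification for any group. No time is recorded for the control siRNA, and no injury is recorded for QSC. Whether the 2 libraries of a group came from separate animals or cultures is not in the labels. The p-values therefore describe only how these libraries spread, and that spread may be technical. Culture, siRNA treatment and differentiation came together, so in the cultured groups against the freshly isolated groups (ASC and QSC) they cannot be told apart, and in bulk cells neither can fewer cells with an open site and a less open site per cell. Peak lists do not measure LncMyod RNA, and the knockdown was not checked here.

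Hox genes are arranged along each cluster in the order in which they act from head to tail and, in the limb, from the body wall outward. Genes at the anterior end, with low numbers, act in the hindbrain and neck, and genes at the posterior end, with high numbers, act in the trunk, limb and tail. Adult cells, satellite cells among them, keep part of the Hox pattern of the place where they arose, and Polycomb complexes are known to hold the remaining Hox genes silent. In mouse satellite cells Hoxa10 is known for a role in positional memory and proliferation, and induced Hoxa9 is known to limit satellite cell function in old animals.

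The sequences shown with the main comparison are 4 promoters, which need not hold its differences. Each runs from 250 bases before to 50 bases after an annotated start site, from the RefSeq table of build GRCm38.p6. Of the 38 genes, 22 had an entry there, with 24 start sites. The Hoxa9 promoter (chr6:52227321-52227620, minus strand) is shown because Hoxa9 was the listed gene that differed most steadily between cultured and freshly isolated cells, while no library had a peak over this sequence. The promoters of Hoxd1 (chr2:74762730-74763029, plus strand) and Hoxd3 (chr2:74711743-74712042, plus strand) are shown because both loci lost covered length in culture, and they differ in how much of the promoter was open in every library. Capitals in these 3 sequences mark bases under a peak in all 8 libraries. These are 0 of 300 bases for Hoxa9, 285 for Hoxd1 and 30 for Hoxd3. The Hoxd3 count was set by LncMyod siRNA replicate 2, as every other library covered 109 to 300 of its bases. Covered bases of the Hoxd1 promoter averaged 296.2 in cultured and 300 in freshly isolated libraries.
Hoxa9: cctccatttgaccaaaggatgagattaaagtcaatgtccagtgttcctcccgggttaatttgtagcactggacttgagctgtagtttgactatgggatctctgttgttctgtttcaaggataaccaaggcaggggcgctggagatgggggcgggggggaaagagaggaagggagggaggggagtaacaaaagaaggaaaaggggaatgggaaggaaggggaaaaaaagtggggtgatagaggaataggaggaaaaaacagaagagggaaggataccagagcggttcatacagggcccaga
Hoxd1: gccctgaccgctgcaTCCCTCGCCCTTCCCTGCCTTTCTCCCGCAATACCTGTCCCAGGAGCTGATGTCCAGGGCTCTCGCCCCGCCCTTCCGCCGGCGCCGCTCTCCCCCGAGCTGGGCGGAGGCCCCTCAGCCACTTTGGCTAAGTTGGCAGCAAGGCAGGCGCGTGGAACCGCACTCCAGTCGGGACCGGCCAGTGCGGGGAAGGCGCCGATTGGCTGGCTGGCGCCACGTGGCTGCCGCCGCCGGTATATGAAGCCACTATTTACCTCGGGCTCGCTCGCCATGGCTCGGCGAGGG
Hoxd3: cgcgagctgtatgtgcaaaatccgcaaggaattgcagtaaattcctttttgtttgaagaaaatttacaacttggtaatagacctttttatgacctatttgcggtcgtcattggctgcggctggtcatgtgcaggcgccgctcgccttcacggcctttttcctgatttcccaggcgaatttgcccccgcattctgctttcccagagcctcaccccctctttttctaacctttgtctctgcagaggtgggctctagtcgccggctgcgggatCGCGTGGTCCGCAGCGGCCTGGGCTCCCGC

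The Hoxa6 promoter (chr6:52208623-52208922, minus strand) was chosen after its values were seen, because a peak covered it in 3 of the 4 freshly isolated libraries and in no cultured library. Capitals mark its match to CAGCTG, the E-box that MyoD prefers.
Hoxa6: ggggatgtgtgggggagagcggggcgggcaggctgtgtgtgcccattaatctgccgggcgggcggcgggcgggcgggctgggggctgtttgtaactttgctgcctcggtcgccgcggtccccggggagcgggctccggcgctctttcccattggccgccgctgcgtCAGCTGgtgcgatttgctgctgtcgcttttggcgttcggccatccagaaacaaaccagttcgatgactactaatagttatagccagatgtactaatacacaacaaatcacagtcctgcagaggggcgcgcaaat

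The clusters also hold microRNAs that are known to target Hox transcripts, the miR-10 and miR-196 families. Their mature sequences, from the RefSeq table, are shown with the seed (bases 2 to 8) in capitals. miR-10a-5p and miR-10b-5p share the seed ACCCUGU, and miR-196a-5p and miR-196b-5p share the seed AGGUAGU.
miR-10a-5p: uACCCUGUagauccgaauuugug
miR-10b-5p: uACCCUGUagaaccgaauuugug
miR-196a-5p: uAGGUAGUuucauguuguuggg
miR-196b-5p: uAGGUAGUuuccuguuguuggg

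The libraries held 95449 and 79396 peaks in LncMyod siRNA, 82854 and 81327 in control siRNA, 70341 and 59666 in ASC, and 69595 and 64991 in QSC. The cultured libraries had more and narrower peaks, with a median width of 489 to 530 bp in cultured cells against 588 to 601 bp in freshly isolated cells. The lists carry no read counts, so depth is unknown, and the absence of a peak does not show closed chromatin. Covered length was therefore scaled to the mean total covered length of the 8 libraries, and kb below are scaled kb unless base pairs of a single region are given. Leukocyte marker loci also differed: the 10 markers summed to 8.995 to 13.6 kb in cultured libraries and 4.29 to 7.81 kb in freshly isolated libraries. Itgam, an integrin of myeloid cells, was at 0 in all 4 freshly isolated libraries, and Adgre1, a macrophage receptor gene, was at 0 in all 8. The 12 satellite cell markers summed to 34.6 to 41.2 kb in cultured libraries and 46.0 to 48.4 kb in freshly isolated libraries. They did not move together, as 5 had a log2 difference above 0 in cultured against freshly isolated cells and 7 below. By limma with Benjamini-Hochberg adjustment 1 of them fell, against 9.23% of all rows, and 0 rose, against 9.03%. Pax7, which marks satellite cells, was open in every library (7.89 to 10.7 kb in cultured and 9.745 to 12.02 kb in freshly isolated libraries). The part of these differences in the Hox results was not tested.

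**Figure D1:**
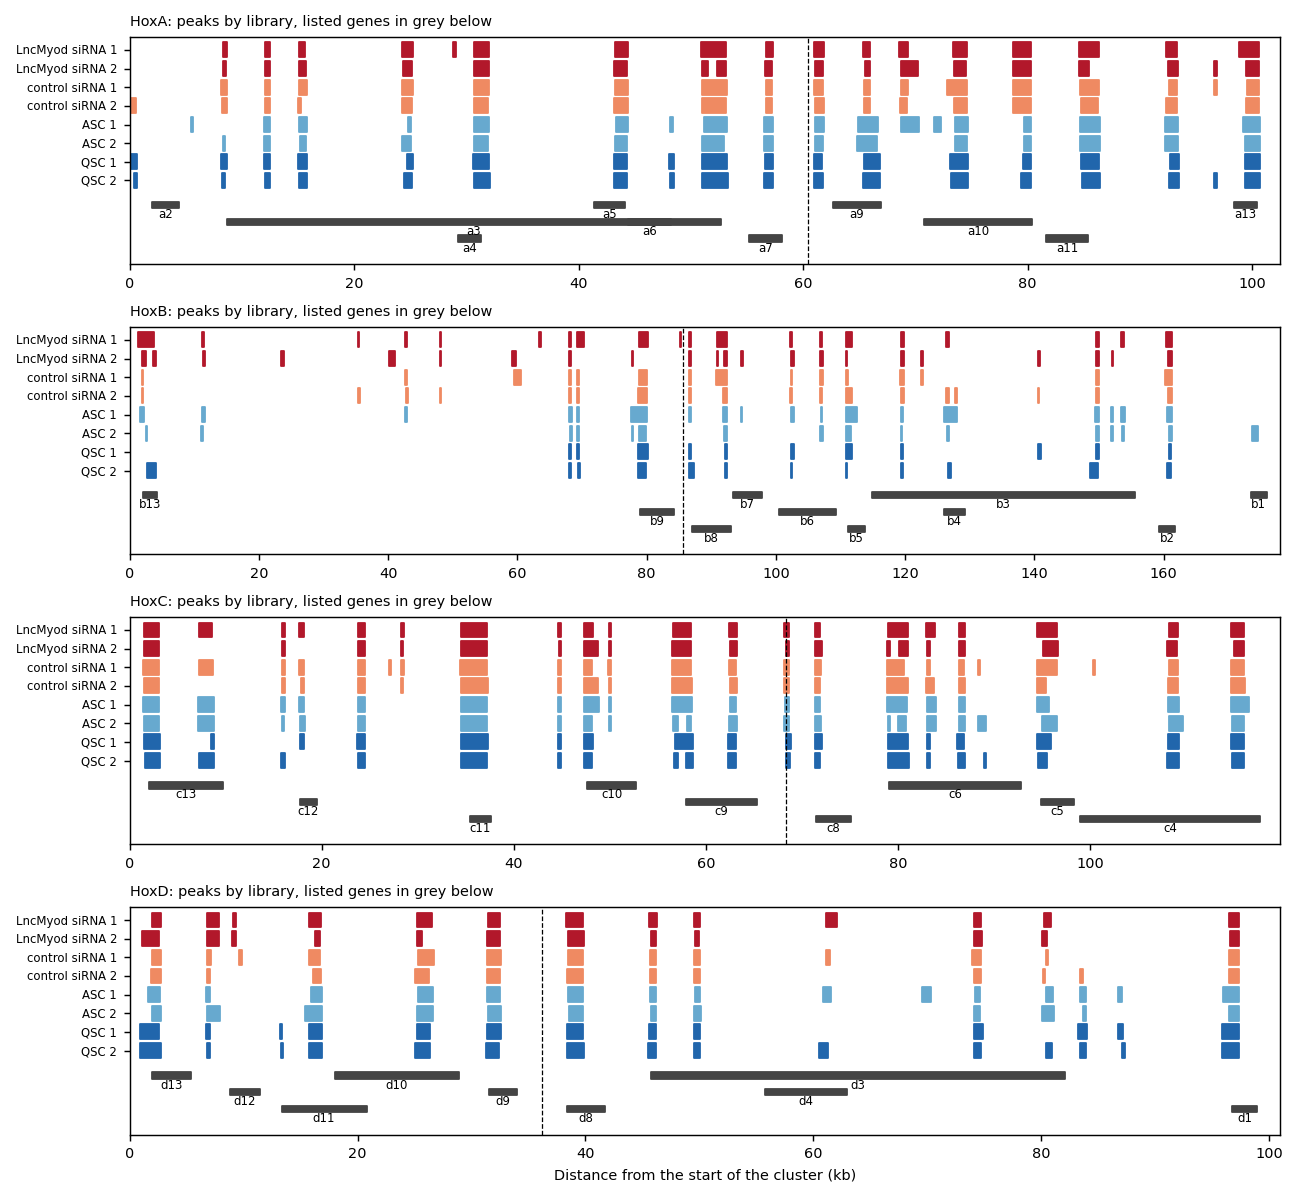
Peaks of each library along the 4 Hox clusters. The x axis is the distance from the start of the cluster in kb, each row is a library (LncMyod siRNA and control siRNA above, ASC and QSC below), grey bars are the listed genes and the dashed line parts genes of positions 9 to 13 from those of positions 1 to 8. Of 91 regions in the clusters, 47 were held by all 8 libraries, and the columns of peaks over Hoxa9 are wider in ASC and QSC while those at the right end of Hoxa10 are wider in the cultured libraries.

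Many regions of HoxA, HoxC and HoxD were open in all groups, and few of HoxB were. Peaks of the 8 libraries merged into 91 regions inside the clusters, of which 47 (51.6%) were held by all 8 libraries, against 25% of all 141310 regions. The share was 15 of 22 regions in HoxA, 15 of 23 in HoxC and 10 of 18 in HoxD, but 7 of 28 in HoxB. These counts take 1 bp of overlap as held. Where peaks had to cover 50% of the region, 26 of 91 (28.6%) were held by all 8, against 13.4% of all regions, and 1 of 28 in HoxB. With peaks of −log10 q of at least 5 it was 21 of 61 (34.4%) against 27.3%, and 0 of 11 in HoxB. Regions inside the clusters were also wider, with a median of 897 bp against 648 bp over all regions. Of the 47 shared regions, 39 overlapped the body of a listed gene, with no share of other regions set beside this count. Gene bodies fill much of the clusters, and Hoxa3 alone spans 44009 of the 102464 bp of HoxA.

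Compared per length, the largest shares of the locus under peaks were at some posterior genes of HoxA and HoxC. The median share over the 8 libraries was 44.2% for Hoxc11, a gene of hindlimb identity, 29.5% for Hoxa11, which patterns the lower limb, 25.4% for Hoxc13, known from hair and nails, 24.9% for Hoxa9 and 24.3% for Hoxa10. Position did not order all genes. The posterior genes Hoxc10 and Hoxc12 had 12.9% and 12.6%, and the more anterior Hoxa4, Hoxc5 and Hoxc6 had 22.6%, 20.3% and 20.2%. At the low end were the anterior genes Hoxb1, Hoxa2 and Hoxd4, with medians of 0%, 1.64% and 1.69%. Hoxb1, a hindbrain gene, had a peak in 1 library only (ASC replicate 2, 1.16 kb) and was the member that did not pass the filter of 200 covered bp in 2 libraries. The 37 tested loci had a median share of 13.9%, against 5.32% over 25228 tested loci. Such a share depends on the length of the locus, and loci of matched length were not compared. Neighbours in this order mostly overlapped between libraries, Hoxc11 excepted.

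The region over Hoxc11 (chr15:102953555-102956409) held its width in every library, with 2684 and 2701 bp in LncMyod siRNA, 2786 and 2801 bp in control siRNA, 2751 and 2709 bp in ASC, and 2767 and 2672 bp in QSC. The LncMyod siRNA values lay just below the control siRNA values, and the ASC and QSC values overlapped. A region between Hoxc12 and Hoxc11 (chr15:102942839-102943621), beside the annotated body of the noncoding RNA gene Hotair, was also held by all libraries, with 680 to 746 bp in cultured and 724 to 783 bp in freshly isolated libraries. By the authors' fold enrichment it ranked at a median percentile of 81.1 within its libraries, the highest of the 91 regions.

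**Figure D2:**
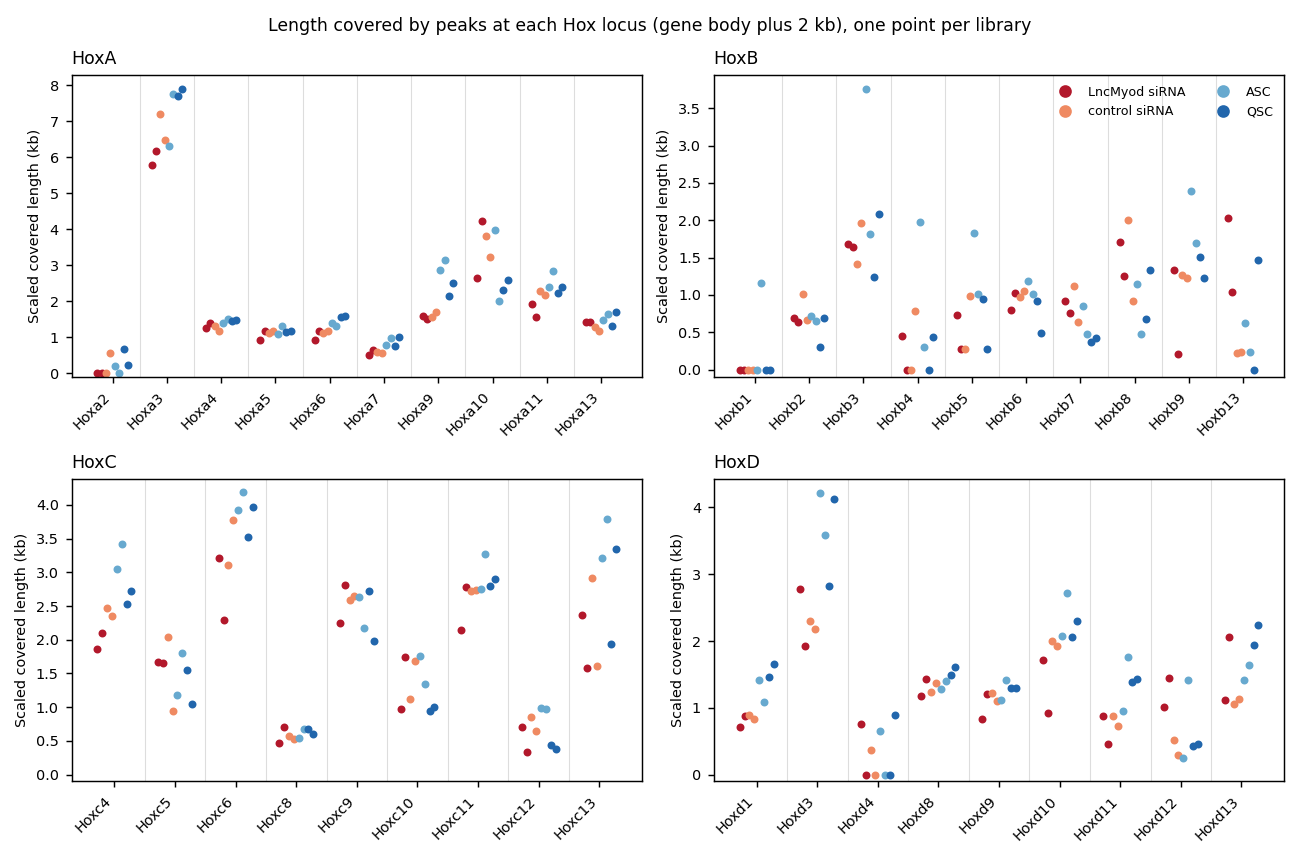
Scaled covered length in kb (y axis) at each Hox locus, gene body plus 2 kb, in cluster order, with a point for each library, cultured groups left of ASC and QSC within each gene. The 4 cultured points of Hoxa9 lie between 1.51 and 1.70 kb, below all freshly isolated points at 2.16 to 3.14 kb, and Hoxb1 is at 0 in all libraries but ASC replicate 2.

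Cultured against freshly isolated cells gave the clearest differences at Hox loci, and with all peaks and whole loci those past the threshold were decreases. Of the 37 tested loci, 4 fell in cultured cells by limma with Benjamini-Hochberg adjustment over all 25232 rows, against a background of 9.23% of rows that fell, and 0 rose, against 9.03%. The 4 were Hoxa9, Hoxd1, Hoxc4 and Hoxd3. The count is near the background share and is no result about Hox genes as a group. The members had a median log2 difference of -0.16, with 10 above 0 and 27 below, and all rows had a median of -0.08. Scaled instead to the regions that all 8 libraries held, the members' median turned to 0.003 with 19 above 0, the median of all rows was 0.09, and Hoxa9 was the member that still fell. In that fit 4.31% of all rows fell. With no scaling 1 member fell, against 3.76% of all rows, whose median was 0.05. With scaling to the number of peaks 15 members fell, against 30.5% of all rows, whose median was -0.20. With peaks of −log10 q of at least 5, 3 of 32 tested members fell, against 7.89% of all rows. In that fit 1 member, of HoxB, rose, against 8.79%.

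Hoxa9 had 1.59 and 1.51 kb in LncMyod siRNA and 1.57 and 1.70 kb in control siRNA, against 2.88 and 3.14 kb in ASC and 2.16 and 2.51 kb in QSC. All 4 cultured libraries lay below all 4 freshly isolated libraries, with the ASC libraries on top. The mean was 1.59 ± 0.0812 kb in cultured and 2.67 ± 0.428 kb in freshly isolated libraries (SD, n = 4 each). The log2 difference was -0.59 (SE 0.08, limma with Benjamini-Hochberg adjusted p = 0.00742). It was -1.16 with the gene body alone (adjusted p = 0.00185), and the call was lost with a stricter peak threshold of −log10 q of at least 5 (adjusted p = 0.305), with every list cut to the same number of peaks (lists of equal length, 0.189) and with 10 kb of flank (0.0661).

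Inside the Hoxa9 body lay a region (chr6:52225215-52227266) that ends just short of the promoter shown above. It measured 640 and 430 bp in LncMyod siRNA, 524 and 586 bp in control siRNA, 1813 and 1809 bp in ASC and 1437 and 1506 bp in QSC, in base pairs as deposited. The groups did not overlap with or without scaling. On the scaled log2 scale the difference was -1.79, and of the 35293 regions held by all 8 libraries 103 had a lower value. The flanking region between Hoxa7 and Hoxa9 (chr6:52221376-52222321) measured 768 to 946 bp in cultured and 699 to 836 bp in freshly isolated libraries and overlapped between them.

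In the 5′ part of Hoxa10, the next gene in the cluster, the difference ran the other way. The region there (chr6:52239110-52240749) measured 1586 and 1611 bp in LncMyod siRNA, 1627 and 1586 bp in control siRNA, 614 and 575 bp in ASC, and 710 and 889 bp in QSC. All cultured libraries lay above all freshly isolated ones, which 1.7% of regions held by all 8 libraries did, and the scaled log2 difference was 1.03, with 383 regions higher. This region and that over Hoxa9 were singled out after their values were seen.

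With the window set to 2 kb on both sides of the start site, Hoxa10 rose in cultured cells (log2 difference 0.70, SE 0.09, limma with Benjamini-Hochberg adjusted p = 0.00772) and Hoxa9 fell (-0.79, adjusted p = 0.00268). In that fit, over genes with a listed start site, 1 of 19 members rose against 3.68% of loci, and 5 fell against 13.3%. Over the whole Hoxa10 locus with its flanks the libraries overlapped, with 2.66 and 4.23 kb in LncMyod siRNA, 3.804 and 3.24 kb in control siRNA cells, 3.97 and 2.00 kb in ASC, and 2.31 and 2.60 kb in QSC (log2 difference 0.33, adjusted p = 0.301). Of the pair of listed Hoxa10 promoters, the downstream one was covered in part in all 8 libraries and the upstream one, just beyond the wide region, in none.

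At the anterior end of HoxD, Hoxd1, a gene known from pain-sensing neurons, had 0.716 and 0.879 kb in LncMyod siRNA and 0.886 and 0.829 kb in control siRNA, against 1.41 and 1.09 kb in ASC and 1.46 and 1.66 kb in QSC. All cultured values lay below all freshly isolated values. The log2 difference was -0.51 (SE 0.10, limma with Benjamini-Hochberg adjusted p = 0.0196), and the call was lost without either control siRNA library (0.0634 and 0.0719) or either QSC library (0.0521 and 0.0742). With the gene body alone it was -0.11 (adjusted p = 0.395). The region across its start (chr2:74762045-74763606) measured 894 and 853 bp in LncMyod siRNA, 906 and 846 bp in control siRNA, 1412 and 899 bp in ASC and 1443 and 1521 bp in QSC, so ASC replicate 2 overlapped the cultured libraries before scaling.

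Hoxd3, which patterns the first neck vertebrae, had 2.78 and 1.93 kb in LncMyod siRNA and 2.297 and 2.18 kb in control siRNA, against 4.22 and 3.58 kb in ASC and 2.83 and 4.12 kb in QSC. The groups did not overlap, although the highest cultured library lay close to the lowest QSC library. The log2 difference was -0.58 (SE 0.15, limma with Benjamini-Hochberg adjusted p = 0.0420). With the gene body alone it was -0.35 (adjusted p = 0.216). Its call was lost in 6 of the 8 fits that left out a library, those without LncMyod siRNA replicate 2, either control siRNA library, either ASC library or QSC replicate 2 (adjusted p of 0.0696 to 0.117).

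Between Hoxd3 and Hoxd1 lies Haglr (chr2:74748422-74762896), a long noncoding RNA gene whose locus shares bases with both. It had 1.24 and 1.15 kb in LncMyod siRNA and 1.08 and 1.27 kb in control siRNA, against 2.94 and 2.52 kb in ASC and 2.67 and 3.14 kb in QSC. The cultured values were less than any freshly isolated value by more than the spread within either. The log2 difference was -0.97 (SE 0.09, limma with Benjamini-Hochberg adjusted p = 0.00317), and it passed the threshold in every alternative tried for it, with an adjusted p of at most 0.0340.

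A region inside Haglr (chr2:74749413-74750197) was held by all 4 freshly isolated libraries, with 578 and 264 bp in ASC and 785 and 568 bp in QSC, and by 1 of 4 cultured libraries, control siRNA replicate 2 with 291 bp. A second one (chr2:74752941-74753572) was held by ASC replicate 1 and both QSC libraries and by no cultured library. Both were singled out after their values were seen, and the Hoxd3, Haglr and Hoxd1 loci share bases, so their decreases are not independent.

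Hoxc4, at the anterior end of HoxC, had 1.86 and 2.097 kb in LncMyod siRNA and 2.47 and 2.36 kb in control siRNA, against 3.05 and 3.42 kb in ASC and 2.53 and 2.73 kb in QSC. The gap between control siRNA replicate 1 and QSC replicate 1 was small. The log2 difference was -0.35 (SE 0.08, limma with Benjamini-Hochberg adjusted p = 0.0321). The call was lost without LncMyod siRNA replicate 1, either control siRNA library, ASC replicate 2 or either QSC library (adjusted p of 0.0605 to 0.119), and with the shared-region scaling the difference was -0.15 (adjusted p = 0.123). Its whole listed promoter was under a peak in all 8 libraries.

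Other members with the lowest p in this comparison did not pass the threshold. Hoxa6 had 0.920 and 1.17 kb in LncMyod siRNA, 1.14 and 1.18 kb in control siRNA cells, 1.39 and 1.32 kb in ASC, and 1.57 and 1.60 kb in QSC (log2 difference -0.30, limma adjusted p = 0.0572). The promoter shown for Hoxa6 lay under a peak of 298 bp in ASC replicate 1 and of 423 and 378 bp in QSC, and under none in ASC replicate 2 or in culture. This was a weak region, with a median percentile of 0.802 by the authors' fold within the libraries that held it.

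Hoxd11, a gene of the lower limb, had 0.877 and 0.462 kb in LncMyod siRNA, 0.872 and 0.726 kb in control siRNA cells, 0.956 and 1.76 kb in ASC, and 1.38 and 1.43 kb in QSC (log2 difference -0.61, limma adjusted p = 0.0619). Hoxa7, a trunk gene, averaged 0.588 ± 0.0548 kb in cultured and 0.887 ± 0.124 kb in freshly isolated libraries (SD, n = 4 each; log2 difference -0.35, adjusted p = 0.0645). Hoxa11 overlapped between the groups, with 1.57 to 2.29 kb in cultured and 2.23 to 2.84 kb in freshly isolated libraries (adjusted p = 0.0973). Counted by overlap alone, 8 of 37 members had all cultured libraries below all freshly isolated libraries, against 15.7% of all tested loci, and 0 of 37 had them above, against 6.57%.

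**Figure D3:**
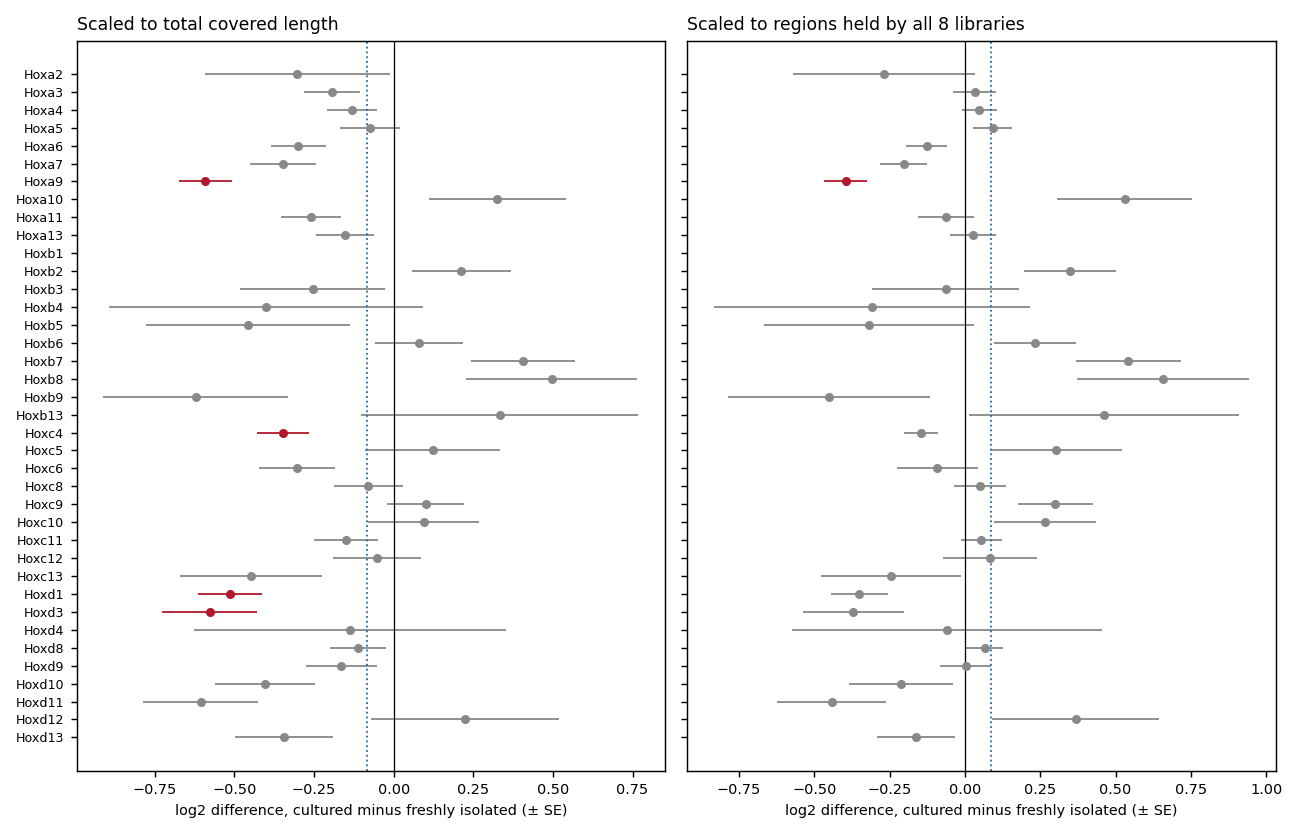
Log2 difference in covered length, cultured minus freshly isolated (x axis, with SE), for each tested Hox locus (rows), scaled to the total covered length at left and to the regions held by all 8 libraries at right. Points in red passed the threshold of 0.05 and the dotted line is the median of all rows: 4 members are red at left and Hoxa9 alone at right, where the members' median turned to 0.003.

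Taken as whole clusters, HoxD lost covered length in culture. It had 9.15 and 9.32 kb in LncMyod siRNA and 9.18 and 8.54 kb in control siRNA, against 12.1 and 13.3 kb in ASC and 12.03 and 14.1 kb in QSC. All cultured libraries lay below all freshly isolated libraries, by more than the spread within either. The log2 difference was -0.48 (SE 0.08, limma with Benjamini-Hochberg adjusted p = 0.0103), and it lost the call without scaling (adjusted p = 0.113), with shared-region scaling (0.0552) and with the stricter peak threshold (0.153).

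HoxA had 14.0 and 15.7 kb in LncMyod siRNA, 16.7 and 16.1 kb in control siRNA cells, 18.4 and 19.1 kb in ASC and 17.3 and 18.4 kb in QSC. The groups did not overlap, and the log2 difference of -0.23 (SE 0.06, limma adjusted p = 0.0496) turned to 0.01 with shared-region scaling. The call also ended in 7 of the 8 fits that left out a library, all but that without LncMyod siRNA replicate 2, with adjusted p up to 0.147. HoxC had 16.9 and 17.5 kb in LncMyod siRNA, 20.1 and 18.4 kb in control siRNA cells, 21.2 and 23.5 kb in ASC, and 18.6 and 19.3 kb in QSC, which overlap (log2 difference -0.17, adjusted p = 0.0950; 0.06 with shared-region scaling).

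HoxB spread widely within groups, with 10.5 and 8.67 kb in LncMyod siRNA, 8.80 and 8.02 kb in control siRNA cells, 12.6 and 8.47 kb in ASC, and 5.78 and 8.08 kb in QSC (log2 difference 0.08, limma adjusted p = 0.726; -0.08 with scaling to the number of peaks). An exact two-sided permutation test over the 8 libraries gave p = 0.0286 for HoxA and for HoxD, the smallest that 70 splits allow, and 0.0571 after adjustment over the 4 clusters. The same test gave 0.114 for HoxC and 0.743 for HoxB.

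With all peaks, the balance between the posterior and the anterior part of each cluster did not differ beyond the spread. The posterior part, from position 9 on, held 54.3 ± 1.75% of covered length in cultured and 53.3 ± 5.55% in freshly isolated libraries in HoxA (SD, n = 4 each). In HoxD it was 51.0 ± 2.68% in cultured and 47.0 ± 6.16% in freshly isolated libraries, in HoxC 58.9 ± 1.10% and 56.3 ± 2.04%, and in HoxB 43.4 ± 7.48% and 37.5 ± 3.96%, cultured first. Adjusted over the 4 clusters, the exact two-sided permutation test gave p of 0.305 for HoxB, HoxC and HoxD and 0.714 for HoxA.

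**Figure D4:**
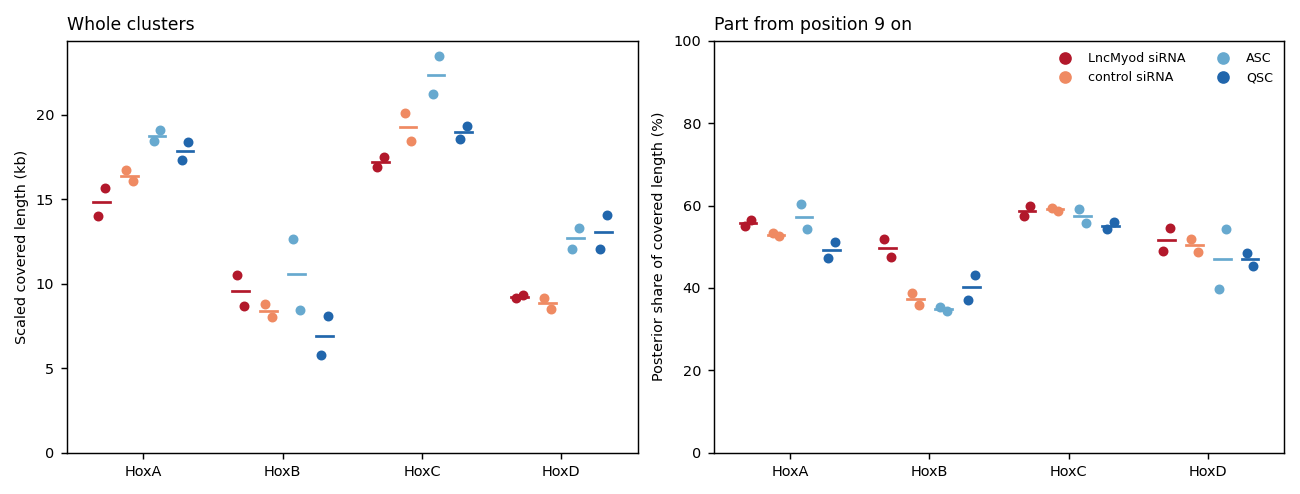
Scaled covered length of each whole cluster in kb (left) and the percent of it in the posterior part, from position 9 on (right), with a point for each library and a bar for the mean of the 2 libraries of a group. HoxD lies at 8.54 to 9.32 kb in the cultured libraries and 12.03 to 14.1 kb in ASC and QSC, while the posterior shares of the groups overlap.

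The lower scaled length of shared regions in culture was not particular to the Hox clusters. Before scaling, the regions held by all 8 libraries together covered 28.85 to 33.44 Mb in cultured and 30.65 to 34.01 Mb in freshly isolated libraries, which overlap. They made up 52.3 to 59.8% of covered length in cultured and 64.95 to 72.3% in freshly isolated libraries, so scaling to the total lowers their cultured values. Among these regions the median log2 difference in scaled covered length was -0.25 over all 35293, with 78.6% below 0. Over the 47 Hox regions it was -0.24, with 38 below 0. By cluster the median was -0.26 in HoxA, -0.24 in HoxB, -0.20 in HoxC and -0.39 in HoxD. Of the 47, 11 had all cultured libraries below all freshly isolated ones, against 27.1% of all such regions, and 2 had them above, against 1.7%, the region of Hoxa10 described above and a region over Hoxb8 (chr11:96283002-96284780). The region over Hoxb8, a trunk gene that is also used in blood progenitors, measured 1619 and 678 bp in LncMyod siRNA, 1749 and 644 bp in control siRNA, 589 and 392 bp in ASC, and 365 and 394 bp in QSC.

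**Figure D5:**
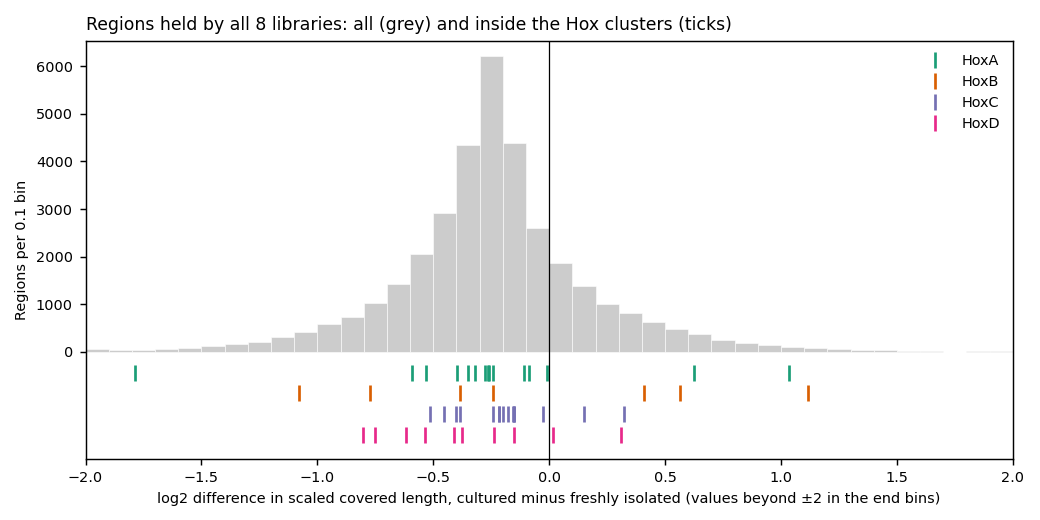
Log2 difference in scaled covered length, cultured minus freshly isolated (x axis), of the 35293 regions held by all 8 libraries (grey bars, number per bin of 0.1) and of the 47 among them inside the Hox clusters (ticks, a row for each cluster). Both centre near -0.25, and the HoxA ticks at -1.79 and 1.03 are the regions over Hoxa9 and in the 5′ part of Hoxa10.

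Few Hox regions were present in one state and absent from the other. A single region of the 91 was held by all 4 cultured libraries and no freshly isolated library, against 4.78% of all regions. It lies inside the body of Hotair, a noncoding RNA gene of HoxC, between Hoxc12 and Hoxc11 (chr15:102947363-102947642), with 280 and 206 bp in LncMyod siRNA and 275 and 267 bp in control siRNA. Hotair itself had 0.821 and 0.913 kb in LncMyod siRNA, 1.19 and 0.980 kb in control siRNA cells, 0.752 and 0.875 kb in ASC, and 0.791 and 0.816 kb in QSC, and did not pass the threshold (log2 difference 0.17, limma adjusted p = 0.212). No Hox region was held by all freshly isolated libraries and no cultured one, against 0.551% of all regions.

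Control siRNA cells against ASC sets cultured cells beside cells isolated after injury. Hoxa9 fell, the 1 member of 37 to do so against 1.79% of all rows, and 0 rose against 2.36%, with 4.15% of rows called in either direction. Its control siRNA libraries had 1.57 and 1.70 kb and its ASC libraries 2.88 and 3.14 kb (log2 difference -0.72, SE 0.12, limma with Benjamini-Hochberg adjusted p = 0.0297). The call was lost without either control siRNA (adjusted p = 0.165 and 0.139), either ASC (0.0578 and 0.104) or either QSC library (0.0618 and 0.0623), and with the 4 libraries of the comparison alone (0.0721). With the start-site window Hoxa9 fell (adjusted p = 0.0109) and Hoxa10 rose (log2 difference 0.84, adjusted p = 0.0237), against 2.46% and 1.51% of loci there.

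Of the other members with the lowest p, Hoxd3, Hoxc4, Hoxd1 and Hoxa7 had log2 differences of -0.68, -0.36, -0.36 and -0.35, and limma adjusted p of 0.129, 0.138, 0.208 and 0.236. Hoxa13, an autopod gene, had 1.295 and 1.18 kb in control siRNA against 1.49 and 1.64 kb in ASC (adjusted p = 0.326). Hoxd11 had 0.872 and 0.726 kb in control siRNA against 0.956 and 1.76 kb in ASC (0.327), and Hoxc13 2.92 and 1.62 kb in control siRNA against 3.21 and 3.79 kb in ASC (0.353). In all 7 the control siRNA libraries lay below the ASC libraries, without passing the threshold. As the 7 were picked by low p, this order is no separate result, and no share of all loci is set beside it. The members' median log2 difference was -0.20, with 6 above 0 and 31 below. That of all rows was -0.10, with 37.3% of rows above 0. These values share the ASC and control siRNA libraries with the comparison above. Whole HoxD had a log2 difference of -0.49 (adjusted p = 0.0582).

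Within the clusters, 1 region was held by both control siRNA libraries and neither ASC library, against 11.7% of all regions, and 3 by both ASC libraries and neither control siRNA library, against 2.64%. With 2 libraries a group these counts have no test. Among the noncoding genes of the clusters, Haglr fell here as well (log2 difference -0.95, SE 0.13, limma with Benjamini-Hochberg adjusted p = 0.0221). In this comparison the Haglr call was lost without either control siRNA library. It was also lost with the 4 libraries of the comparison alone, where 0 of 23842 rows fell.

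ASC against QSC gave no Hox locus past the threshold by limma with Benjamini-Hochberg adjustment. Of 37 members 0 rose, against 6.65% of all rows, and 0 fell, against 4.99%, while 2 had an unadjusted p under 0.05. The nearest was Hoxc12, a posterior gene expressed in hair follicles, with 0.988 and 0.971 kb in ASC and 0.443 and 0.373 kb in QSC (log2 difference 0.71, SE 0.20, adjusted p = 0.0685). Both ASC values lay above both QSC values. It passed with the 4 libraries of the comparison alone (adjusted p = 0.0443), with lists of equal length (0.0394) and without either LncMyod siRNA library (0.0293 and 0.0287).

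Hoxa9 had 2.88 and 3.14 kb in ASC and 2.16 and 2.51 kb in QSC, without overlap (log2 difference 0.31, SE 0.12, limma adjusted p = 0.156). Of the next members by p, Hoxc4, Hoxb6, Hoxc10 and Hoxb5 were above QSC in both ASC libraries and Hoxd1 below it in both, with adjusted p of 0.227, 0.238, 0.306, 0.334 and 0.377. Hoxb3 overlapped between the groups, with 3.76 and 1.81 kb in ASC and 1.24 and 2.08 kb in QSC (limma adjusted p = 0.356). The members named in this comparison were picked by low p, so the order of their libraries is no separate result. No share of all loci is set beside it. The members' median log2 difference was 0.10, with 24 above 0 and 13 below, and that of all rows was 0.04. In the clusters, 5 regions were held by both ASC libraries and neither QSC library, against 5.99% of all regions, and 1 by both QSC libraries and neither ASC library, against 8.54%. That one lies at the upstream start of Hoxd11 (chr2:74679418-74679686), with 200 and 211 bp in QSC.

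LncMyod siRNA against control siRNA gave no Hox locus past the threshold. By limma with Benjamini-Hochberg adjustment 0 of 37 members rose, against 0.0238% of all rows, and 0 fell, against 0%, and 0 members had an unadjusted p under 0.05, against 2315 of 25232 rows. The members' log2 differences ran from -0.62 to 1.44 with a median of -0.07, and all rows had a median of -0.06. A difference missed at this size of experiment is not shown to be absent.

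The lowest p was at Hoxb13, a tail and prostate gene, with 2.03 and 1.04 kb in LncMyod siRNA against 0.224 and 0.233 kb in control siRNA. Both LncMyod siRNA libraries lay above both control siRNA libraries, but they also lay far apart (log2 difference 1.44, SE 0.62, limma adjusted p = 0.561). The QSC libraries were as far apart at this gene, at 0 and 1.47 kb. Hoxd12, another posterior limb gene, had 1.01 and 1.45 kb in LncMyod siRNA and 0.519 and 0.294 kb in control siRNA libraries (log2 difference 0.93, SE 0.42, adjusted p = 0.581). A region in its body (chr2:74675208-74675595) was held by both LncMyod siRNA libraries, at 221 and 388 bp, and by no other library.

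Hoxa11, Hoxd10 and Hoxc4 were lower in both LncMyod siRNA libraries than in either control siRNA library, with log2 differences of -0.28, -0.47 and -0.23 and limma adjusted p of 0.602, 0.614 and 0.629. Hoxc6, Hoxd13 and Hoxc12 overlapped between the groups (limma adjusted p of 0.712, 0.730 and 0.739). Members named here were also picked by low p, so the order of their libraries is no separate result. No share of all loci is set beside it. In the clusters 2 regions were held by both LncMyod siRNA libraries and neither control siRNA library, against 2.2% of all regions, and 0 the other way, against 1.42%. The 4 whole clusters had log2 differences of -0.14 (HoxA), 0.18 (HoxB), -0.16 (HoxC) and 0.06 (HoxD), with adjusted p of at least 0.682.

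Genes that act with Hox proteins or mark limb position were described from lists. Calls at list genes, cell markers included, often depended on the setting. Of the checks of such calls under other settings, 486 kept the call, 262 lost it and 5 reversed direction. Of 9 TALE cofactor genes, whose products bind DNA together with Hox proteins, 1 fell in cultured against freshly isolated cells, against 9.23% of all rows, and 0 rose, against 9.03%. The 1 was Meis2, with 1.58 and 1.96 kb in LncMyod siRNA and 1.48 and 2.27 kb in control siRNA, against 3.10 and 5.13 kb in ASC and 2.45 and 2.88 kb in QSC (log2 difference -0.71, limma with Benjamini-Hochberg adjusted p = 0.0417). In ASC against QSC 1 of the 9 rose, against 6.65% of all rows, namely Pbx2, with 2.14 and 2.47 kb in ASC and 0.952 and 1.09 kb in QSC (log2 difference 0.88, adjusted p = 0.0207). The list's median log2 difference was -0.03 in cultured against freshly isolated cells and 0.12 in ASC against QSC.

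Of 15 tested genes for limb position, axial level and the cluster flanks, 1 rose in cultured cells, against 9.03% of all rows, and 1 fell, against 9.23%. Shox2, which patterns the upper limb, fell to 1.02 to 1.37 kb in cultured libraries, against 1.88 to 3.11 kb in freshly isolated ones (log2 difference -0.72, limma with Benjamini-Hochberg adjusted p = 0.0140). Meox2, a homeobox gene of muscle precursors, was at 0 in both QSC libraries and between 0.815 and 1.71 kb in the other 6. It rose in ASC against QSC (adjusted p = 0.00284), as did Cdx2, which acts upstream of Hox genes in the trunk and had 1.74 and 2.12 kb in ASC and 0.336 and 0.839 kb in QSC (adjusted p = 0.0452).

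The hindlimb genes Pitx1 and Tbx4 were open in every library, at 1.97 to 2.95 kb in cultured and 2.28 to 4.38 kb in freshly isolated libraries for Pitx1, and at 0.769 to 3.21 kb in cultured and 1.48 to 2.48 kb in freshly isolated libraries for Tbx4. The forelimb gene Tbx5 had 1.59 and 2.193 kb in LncMyod siRNA, 0 and 0.513 kb in control siRNA cells, 1.37 and 0.992 kb in ASC and 0.653 and 0.243 kb in QSC. In LncMyod siRNA against control siRNA the log2 difference was 1.74 for Tbx5 and 1.15 for Tbx4, and neither passed the threshold (limma adjusted p = 0.188 and 0.231). Evx1, which flanks HoxA, and Evx2, which flanks HoxD, did not pass in any comparison.

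Of 19 Polycomb, Trithorax and Ctcf genes, which keep Hox genes silent or active, 1 rose in cultured cells, against 9.03% of all rows, and 0 fell, against 9.23%. Kmt2a, the histone methyltransferase that maintains Hox expression, had 3.66 and 4.16 kb in LncMyod siRNA and 3.64 and 3.51 kb in control siRNA, against 3.99 and 2.94 kb in ASC and 1.75 and 1.59 kb in QSC (log2 difference 0.54, limma with Benjamini-Hochberg adjusted p = 0.0209). The QSC libraries stood alone at the low end, and Kmt2a rose in ASC against QSC too (0.86, adjusted p = 0.0188). Jarid2, a Polycomb cofactor, fell in ASC, with 6.82 and 5.20 kb in ASC and 9.40 and 11.4 kb in QSC (-0.75, adjusted p = 0.0390). The median log2 difference of the 19 was -0.12 in cultured against freshly isolated cells.

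Of 17 listed noncoding genes of the clusters, 10 were among the tested loci and 2 fell in cultured cells, Haglr and Hoxaas3, against 9.23% of all rows. Hoxaas3 overlaps the loci of Hoxa3, Hoxa5, Hoxa6 and Hoxa7 and had 2.52 to 3.34 kb in cultured and 3.45 to 4.17 kb in freshly isolated libraries (log2 difference -0.32, limma with Benjamini-Hochberg adjusted p = 0.0297). Both loci share bases with listed Hox loci, and no fit was made without the shared peaks.

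The hairpins of miR-10a, miR-10b and both copies of miR-196a had no peak over them in any library. The miR-196b hairpin (chr6:52230081-52230165), between Hoxa9 and Hoxa10, lay under a peak in LncMyod siRNA replicate 2 and ASC replicate 1. A region around it (chr6:52228969-52230726) was held by all 4 cultured libraries, at 773 and 1559 bp in LncMyod siRNA and 622 and 700 bp in control siRNA, and by ASC replicate 1 at 1589 bp. It was weak, at a median percentile of 0.106 by the authors' fold.

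Of the 24 Hox promoters, 11 (45.8%) overlapped a peak by at least 1 bp in all 8 libraries and 9 in none. Of all 32619 promoters with a position, 40.9% and 46.2% did so. Only 2 of the 24 (8.33%) lay wholly under a peak in all 8 libraries. The median GC content of the Hox promoters was 57.7%, against 52.7% over all promoters. CAGCTG, which reads the same on both strands, was found in 4 of the 24, those of Hoxa3, Hoxa5, Hoxa6 and Hoxa11, against 16.3% of all promoters. TGANTCA, the AP-1 motif, was found in 1 of 24 against 7.81%, and TGATNNAT, a Hox motif with Pbx, in 4 against 8.85%, on either strand and without overlaps between the motifs being removed. A match describes these letters and is not a bound site. The Hoxa9, Hoxd1 and Hoxd3 promoters printed above held none of the 3 motifs.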

How the data were processed

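ATAC-seq peaks of 8 libraries in 4 groups of 2 were used. The authors made the lists on build mm10 with MACS2 2.1.1, bedtools 2.26.0, Bowtie2 2.3.2, Trimmomatic 0.36, SAMtools 1.3, Picard 2.9.2 and bcl2fastq 2.19, as named in the submitters' processing notes. Settings and the peak filter were not given in the sources used. Each deposited list holds 1 library's peaks with the authors' score, fold enrichment (a ratio), and −log10 p and q values. The fold and the q were used only to rank or filter peaks within a list. Read depth is unknown.

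Covered base pairs per locus were scaled to the mean library total. Loci with at least 200 bp in 2 libraries were kept. Values were tested as log2(scaled bp + 500 bp), which understates changes of low loci, with limma 3.58.1 in R 4.3.3 on all 8 libraries, and p-values were Benjamini-Hochberg adjusted over 25232 rows. Whole clusters also had an exact two-sided permutation test. Tables were made with numpy 2.4.6, pandas 2.3.3 and statsmodels 0.14.6. The fit was tried on simulated data in which genes were changed in ASC alone. A log2 change of 1 was called for 37% of these genes in ASC against QSC and 39% in control siRNA against ASC. In cultured against freshly isolated cells the same change came out at a median of 0.52, and 8% were called. Differences of this size can thus be missed. No change was set between LncMyod siRNA and control siRNA.

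The Hox genes, the lists and the tests were chosen with earlier results of these data known. Genes were named where they passed the threshold or had the lowest p in a comparison. Scaling to the regions held by all 8 libraries was added after the data were seen. Same-numbered libraries deviated from their group means with correlations of 0.00183 to 0.111, so the numbers were not taken as pairs.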

Additional observations from a re-analysis of the deposited data

How the results depend on the processing

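In LncMyod siRNA against control siRNA the count of changed Hox loci was 0 in each fit that left out a library. Values below are log2 differences or counts, in the direction used in the report. The count of changed Hox loci was 0 in ASC against QSC and became 2 that fell with a −log10 q of at least 5 (5.3% of all rows fell there), 1 that rose with lists of equal length (6.7% rose) and 1 that rose with only the libraries of the comparison (5.35% rose). For control siRNA against ASC it was 1, and 0 with no scaling, with 10 kb of flank or with only the libraries of the comparison. In that comparison 2 fell with scaling to the number of peaks (4.72% of all rows fell) and 4 fell with lists of equal length (4.93%). With the start-site window 1 rose (1.51% rose) and 1 fell (2.46% fell). For cultured against freshly isolated cells the count was 4, and 1 with no scaling (3.76% of all rows fell) or shared-region scaling (4.31%). It was 15 with scaling to the number of peaks (30.5%) and 2 with the gene body alone (8.22%). With a −log10 q of at least 5, 3 fell (7.89% fell) and 1 rose (8.79% rose). Leaving out each library in turn gave 0 to 1, 0 to 1 and 1 to 5, the last being 1 without control siRNA replicate 1 or 2 or QSC replicate 2, and 2 without ASC replicate 2 or QSC replicate 1. With the replicate block 3 fell for cultured against freshly isolated cells (8.01% of all rows fell), since Hoxd3 lost its call. HoxA was -0.23 in that fit (limma adjusted p = 0.0604).

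For cultured against freshly isolated cells, HoxA lost its call with no scaling (-0.043), quantile normalization (-0.14), a pseudocount of 100 bp (-0.23), no filter (-0.23), strict peaks (-0.44) and lists of equal length (-0.37), and turned to 0.010 with shared-region scaling. HoxB turned to -0.077 with scaling to the number of peaks and -0.40 with lists of equal length. HoxC turned to 0.0095 with no scaling and 0.063 with shared-region scaling, and passed at -0.34 with scaling to the number of peaks. HoxD lost its call with no scaling (-0.30), shared-region scaling (-0.25) and strict peaks (-0.27). Without a library HoxA ran from -0.26 to -0.19, HoxB from -0.055 to 0.22, HoxC from -0.21 to -0.14 and HoxD from -0.54 to -0.43. In the permutation test, scaling to the number of peaks gave -0.40 for HoxA, -0.079 for HoxB, -0.35 for HoxC and -0.68 for HoxD, HoxB was -0.44 with lists of equal length, HoxC was 0.0097 with no scaling, and shared-region scaling gave 0.0105 for HoxA and 0.065 for HoxC. Without a library HoxA ran there from -0.27 to -0.18 and HoxB from -0.089 to 0.29. The posterior share turned by strict peaks to -8.92 percentage points in HoxA and -12.2 in HoxB, and by lists of equal length to -13.6 in HoxA and -3.26 in HoxC. Without a library HoxA ran from -0.92 to 3.45.

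The clusters held 91 regions at 50% overlap, 61 with strict peaks and 76 with equal lists. No share of all regions is set beside the counts here, so they are no result about the clusters. Regions held by ASC alone against QSC numbered 3 with strict peaks. Regions held by QSC alone numbered 2 at 50% overlap, 4 with strict peaks and 0 with equal lists. Regions of control siRNA alone against ASC numbered 3, 10 and 0 in these settings, and of ASC alone 5 at 50% overlap and 11 with equal lists. Regions of LncMyod siRNA alone against control siRNA numbered 0 with strict peaks, and of control siRNA alone 1 with equal lists. Regions of cultured cells alone numbered 3 with strict peaks and 0 with equal lists, and of freshly isolated cells alone 1 at 50% overlap and 3 with equal lists. Without a library these counts ran from 5 to 11 for ASC, 1 to 5 for QSC, 1 to 7 for control siRNA and 3 to 9 for ASC, 2 to 6 for LncMyod siRNA and 0 to 4 for control siRNA, and 1 to 2 for cultured and 0 to 2 for freshly isolated cells.

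Directions turned elsewhere as follows. In ASC against QSC, Hoxa9 was -0.29 with strict peaks and -0.39 with equal lists, Hoxd1 was 0.072 and Des -0.019 with the gene body alone, and Flt1 was -0.32 with the start-site window. HoxA was -0.13 with equal lists and HoxD 0.11 with quantile normalization, 0.032 without ASC replicate 1 and 0.073 without QSC replicate 2. In control siRNA against ASC, Hoxd3 was 0.21 and HoxB 0.36 with strict peaks, and HoxA was 0.022 and HoxC 0.0027 with shared-region scaling. In LncMyod siRNA against control siRNA, equal lists gave -0.068 for Hoxb13, 0.062 for Hoxd10 and 0.12 for HoxC, strict peaks gave 0.087 for Hoxa11, 0.015 for Hoxc12 and -0.25 for HoxB, the gene body alone gave 0.078 for Hoxa11 and -0.18 for Hoxd13, and 10 kb of flank gave 0.15 for Hoxc4. In cultured against freshly isolated cells, equal lists gave 0.14 for Hoxa6, -0.47 for Meox2 and -0.73 for Pdgfrb, the gene body alone gave 0.030 for Hoxa11, and the start-site window gave -0.11 for Kmt2a. The cause of these changes was not tested.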
